A study of Mus musculus with 3 samples.

Results

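Retinoic acid is made, bound, sensed and broken down by a small set of proteins, and the 10 genes described here encode the main ones of the early head: *Rdh10*, *Aldh1a2* and *Aldh1a3* for synthesis, *Cyp26a1*, *Cyp26b1* and *Cyp26c1* for breakdown, *Rara* and *Rarg* as receptors, and *Crabp1* and *Crabp2* as binding proteins. They were chosen by symbol from the 24062 genes of the count tables, and all 10 were found and passed a minimum of 10 counts in both libraries together. The tables hold 1 rostrum library of wild-type embryos and 1 of *tuft* embryos. In the *tuft* library, *Aldh1a3* was lower, *Aldh1a2*, *Cyp26a1* and *Cyp26b1* had no count, and *Cyp26c1* was higher.

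Retinol is oxidized to retinal by RDH10 and retinal to retinoic acid by the ALDH1A enzymes. CYP26 enzymes oxidize retinoic acid to products that are cleared, so that the tissues which make it and those which remove it together set where it acts. Retinoic acid enters the nucleus and binds RAR receptors, which sit with RXR partners on paired DNA sites and switch on target genes, among them *Cyp26a1* itself. In the embryonic head, both too much and too little retinoic acid are known to disturb the closure of the neural tube and the growth of the eye, the frontonasal region and the neural crest.

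Both groups are of the 3H1 Balb strain at E9, with 18 to 22 somites. The *tuft* embryos were homozygous for *Tet1*tuft, a spontaneous nonsense mutation, and were collected for a neural tube defect, so that genotype and defect cannot be told apart. RNA of 3 embryos was pooled into each library. The labels list 2 *tuft* samples and 1 wild-type sample, and the *tuft* table is not tied to either of them. Without a second library no spread between embryos can be given, no test was run, and every interval below covers counting error only.

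The *tuft* library held 6433067 counts on genes and the wild-type library 14251942. Both were scaled by the trimmed mean of M-values (TMM), which gave *tuft* 0.343 times the effective depth of wild type. Levels are given as counts per 1000000 counts on genes (CPM), which uses the totals alone. A fold change is *tuft* over wild type after TMM, with a 95% Clopper-Pearson interval, and a gene was called when its fold change was past 2 in either direction and the interval left out 1. A gene without a count was set to a floor of 3 counts, 0.466 CPM in *tuft*, and its fold is then a bound at that floor. The 95% Poisson interval of 0 counts reaches further, to 0.573 CPM in *tuft*. *Tet1* had 32 *tuft* counts and 435 wild-type counts. Of 8 forebrain and eye field markers, 8 had counts in wild type and 7 in *tuft*, and of 7 neural crest and head mesenchyme markers 7 and 6 did. The trunk, tail and somite markers summed to 4.84 CPM over 9 genes in wild type and to 0.466 CPM in *tuft*.

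Of the 10 genes, 4 were called lower in *tuft* and 1 was called higher, while 5 were not called. This share stands beside a broad difference between the libraries: of 13979 genes tested, 58.5% were called, 37.3% lower and 21.2% higher. The median log2 fold change of the 10 genes was -0.77, with genes without a count at their bound, and that of all genes tested was -0.46. Together the 10 genes held 5578 counts in *tuft* and 22735 in wild type, of which *Crabp1* and *Crabp2* took 85.3% and 80.1%.

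**Figure D1:**
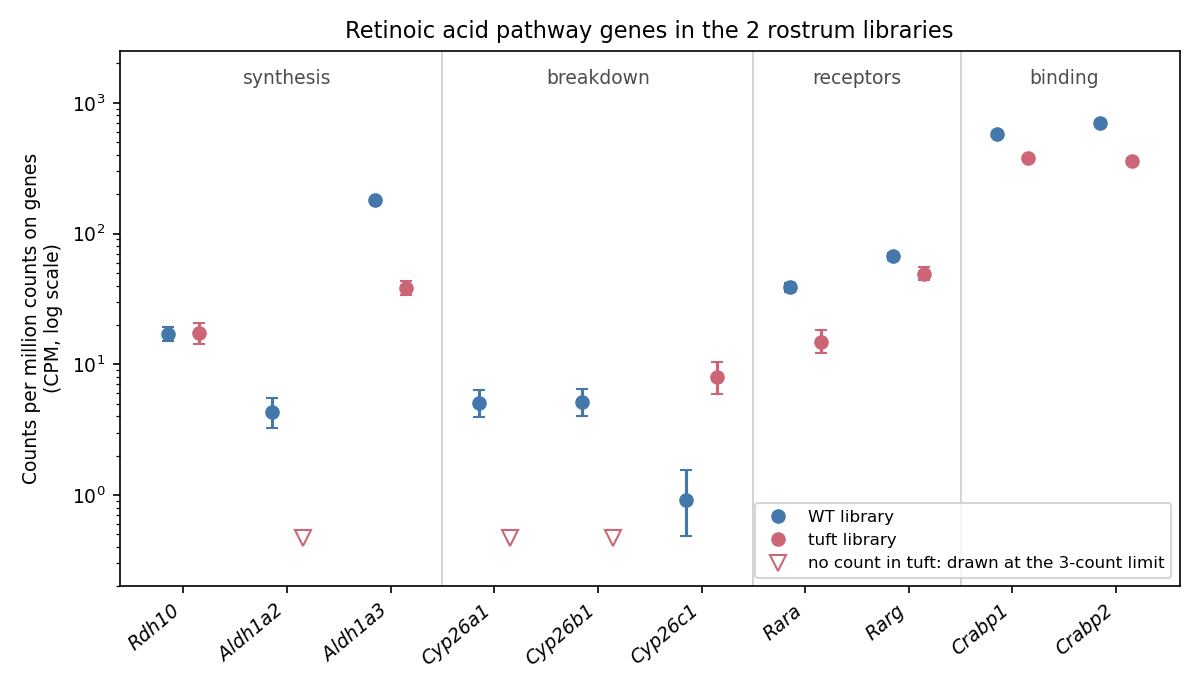
Levels of the 10 genes in the wild-type library (blue) and the *tuft* library (red), in CPM on a log axis. Points are 1 library each, bars are exact 95% Poisson intervals, and open triangles mark genes with no count in *tuft* at the floor of 0.466 CPM. *Crabp1* and *Crabp2* lie above the other 8 genes in both libraries, and *Cyp26c1* is the gene with the clearly higher level in *tuft*.

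*Rdh10* (chromosome 1 of GRCm38, 16105882 to 16132550) encodes the retinol dehydrogenase that supplies retinal to the embryo. It had 111 *tuft* counts and 244 wild-type counts, which are 17.3 CPM (14.2 to 20.8) and 17.1 CPM (15.0 to 19.4). The CPM levels of the 2 libraries overlapped within counting error. After TMM the fold change was 1.32 (1.05 to 1.66), so the gene was not called. With library totals as the scaling, its log2 fold change was 0.01.

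*Aldh1a3* (chromosome 7, 66390892 to 66427477) encodes a retinal dehydrogenase known from the optic vesicle and the surface ectoderm of the eye and nose. It had 246 *tuft* counts and 2561 wild-type counts, or 38.2 CPM (33.6 to 43.3) and 180 CPM (173 to 187). The intervals of the 2 libraries were far apart, and the fold change was 0.280 (0.244 to 0.319). The mean level of this gene over both scaled libraries was 100.3 CPM, and of the 1775 genes with a mean of 100 to 300 CPM, 14.8% were called lower. *Aldh1a3* was therefore on the less common side for its level, where 29.9% were called higher.

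The eye markers did not move together beside it. *Rax*, an eye field transcription factor, had 2 *tuft* counts and 389 wild-type counts, with a fold change of 0.0150 (0.00181 to 0.0544). *Six3*, a forebrain and eye field factor, was higher with a fold change of 4.14 (3.81 to 4.50), and *Pax6*, which marks the optic vesicle and lens ectoderm among other tissues, had a fold change of 0.514 (0.452 to 0.584). Of the 8 forebrain and eye field markers, 2 were called lower, 1 higher and 5 were not called. Of all genes tested, 37.3% were called lower and 21.2% higher, the share to set beside this and the following marker counts. The summed level of the 8 markers was 617 CPM in *tuft* and 594 CPM in wild type. Of the 5 surface ectoderm and placode markers, 2 were called lower, 1 higher and 2 not, with sums of 755 and 618 CPM. The 4 endothelial markers were all called lower and summed to 49.3 CPM in *tuft* and 233 CPM in wild type, and the 3 heart markers had no *tuft* count and summed to 1.82 CPM in wild type. The part of these tissues in the *Aldh1a3* difference, and in those of the other 9 genes, was not tested. In a dissected tissue, fewer cells of a type and less RNA per cell cannot be told apart.

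*Aldh1a2* (chromosome 9, 71215789 to 71296243) encodes the retinal dehydrogenase of the somites, the trunk mesoderm and the dorsal optic vesicle. It had no *tuft* count and 61 wild-type counts, 4.28 CPM (3.27 to 5.50). With the floor of 3 counts it was at least 6.98-fold lower, and at the wild-type share 20.9 counts would have fallen on it in *tuft*. An absence of counts was common at this level: of 667 genes that had 4 to 6 wild-type CPM, 245 (36.7%) were without a *tuft* count.

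Beside *Aldh1a2*, most somite and tail genes that had counts in wild type were at 0 in *tuft*. *Tcf15*, *Tbx6*, *Meox1*, *Cdx2* and *Uncx* had 19, 13, 12, 14 and 4 counts in wild type and none in *tuft*, and of the 9 trunk, tail and somite markers 7 had a count in wild type and 2 in *tuft*. Such zeros were common at these low levels: of 1540 genes that had 0.5 to 1.5 wild-type CPM, 1168 were without a *tuft* count. Their part in the *Aldh1a2* difference was not tested. The third retinal dehydrogenase gene, *Aldh1a1*, had no *tuft* count and 21 wild-type counts. *Aldh1a3* held 2561 of the 2643 *Aldh1a* counts in wild type (96.9%, 96.2% to 97.5%) and 246 of 246 in *tuft*. The family as a whole was lower, with a fold change of 0.271 (0.237 to 0.309).

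The CYP26 genes, which encode the enzymes of breakdown, went in both directions. *Cyp26a1* (chromosome 19, 37697738 to 37701536) had no *tuft* count and 72 wild-type counts, 5.05 CPM (3.95 to 6.36). At the floor it was at least 8.24-fold lower, and at the interval end 6.53-fold. *Cyp26b1* (chromosome 6, 84571414 to 84593908) had no *tuft* count and 73 wild-type counts, 5.12 CPM (4.01 to 6.44). At the floor it was at least 8.36-fold lower, and at the interval end 6.63-fold. Both enzymes clear retinoic acid, the first chiefly at the ends of the embryo and the second in the hindbrain and later tissues. They fall in the band of 4 to 6 wild-type CPM, in which 36.7% of genes were without a *tuft* count.

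*Cyp26c1* (chromosome 19, 37685112 to 37693320), whose enzyme is known from the head mesenchyme and the hindbrain, went the other way. It had 51 *tuft* counts, more than the 13 counts of the deeper wild-type library. These are 7.93 CPM (5.90 to 10.4) and 0.912 CPM (0.486 to 1.56), and the fold change was 11.4 (6.12 to 22.9). Of 1251 genes tested that had 0.5 to 1.5 wild-type CPM, 14.0% were called higher. With genes under the minimum count included, 71 of 1540 genes of this band had at least the 51 *tuft* counts of *Cyp26c1*.

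*Cyp26c1* and *Cyp26a1* are neighbours, with 4418 bases from the end of the first to the start of the second, and their counts went in opposite directions. *Cyp26a1* per *Cyp26c1* was 72 to 13 in wild type and 0 to 51 in *tuft*. This ratio does not depend on the scaling of the libraries, and the exact 95% interval of its change from wild type to *tuft* ended at 0.0166. The same interval for *Cyp26b1* per *Cyp26c1* ended at 0.0163. RefSeq places a long noncoding RNA, *Gm32342*, across *Cyp26c1*. It has no row in the count tables, and whether strand was used in counting is not given in the sources used here, so its reads could have been counted on *Cyp26c1*.

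Summed over the 3 genes, CYP26 counts were 51 in *tuft* and 158 in wild type, and their fold change was 0.940 (0.672 to 1.30). After TMM the interval of the sum held 1. With library totals, an alternative added after seeing the data, the fold change of the sum was 0.715 (0.511 to 0.986), which leaves out 1. *Cyp26c1* held 8.23% of the sum in wild type (4.45% to 13.7%) and 51 of 51 counts in *tuft*. For *Cyp26a1* and *Cyp26b1* the absence of a count allows up to 5.88% of the *tuft* sum each, against 45.6% (37.6% to 53.7%) and 46.2% (38.2% to 54.3%) in wild type.

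*Cyp26a1* is a textbook target of the receptors described below, and its start region is shown for the DR5 element, a direct repeat that a pair of RAR and RXR binds. A direct repeat was searched on both strands of RefSeq windows (GRCm38.p6) from 250 bases before to 50 after each gene start, with a repeat unit of AGGTCA or one of its variants: the unit AGTTCA, the unit GGGTCA or the unit GGTTCA. The units lie 5 bases apart in DR5, 1 in DR1 and 2 in DR2, and the 3 searches share their units. A DR5 was in 32 of all 32851 windows (0.0974%), a DR1 in 0.222% and a DR2 in 0.268%. Windows were found for 7 of the 10 genes, 11 in all, and not for *Rdh10*, *Aldh1a3* and *Crabp2*. A DR5 was in that of *Cyp26a1* and, among 17 target genes with a window, also in that of *Rarb*, the RAR gene best known as a target, and no window of the 10 genes held a DR1 or DR2. The 2 stretches of 29 bases are printed 5′ to 3′ on the strand of each gene, with the repeat units in capitals:
*Cyp26a1*, chr19:37697770-37697798, plus strand: taaagaTGAACTttgggTGAACTaatttg
*Rarb*, chr14:16575507-16575535, minus strand: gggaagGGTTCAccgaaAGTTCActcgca
In *Cyp26a1* the units read as the reverse complement of AGTTCA and lie 32 to 16 bases before the transcript start of this window, inside the RefSeq span of the gene, which begins upstream at another start. In *Rarb* they read forward and lie 53 to 37 bases before the start of the window's transcript. A match of letters is a description of the reference and not a site shown to be bound in these embryos. Both genes with a match were called lower in *tuft*: *Cyp26a1* as above, and *Rarb* with 14 *tuft* counts and 138 wild-type counts, at a fold change of 0.295 (0.157 to 0.513). At their levels this was a common call: of genes with a mean of 1 to 3 CPM, as *Cyp26a1*, 80.2% were called lower, and of those with 3 to 10 CPM, as *Rarb*, 56.8%.

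**Figure D2:**
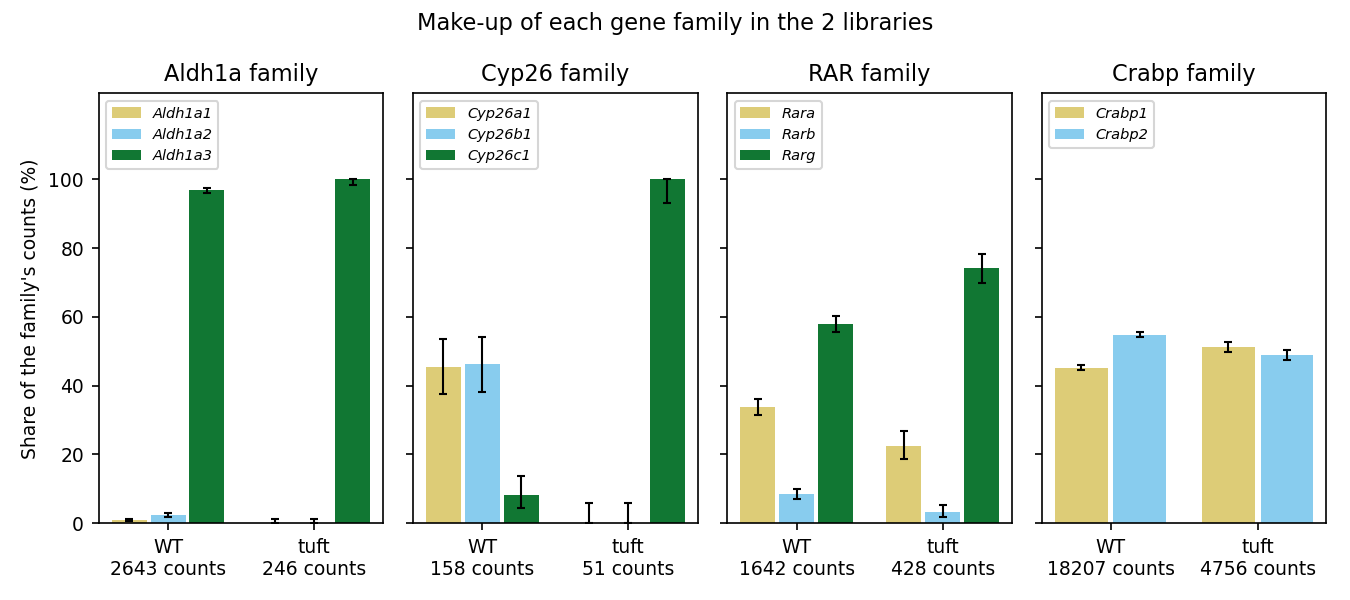
Share of each family's counts (%) that fell on each of its genes in the wild-type and the *tuft* library, with the summed counts under each library. *Aldh1a7* was left out of the *Aldh1a* family. Bars start at 0, error bars are 95% Clopper-Pearson intervals, and for genes without a count they reach the share that 3 counts would give. *Cyp26c1* holds 8.23% of CYP26 counts in wild type and all 51 in *tuft*, and *Rarg* holds 57.9% of RAR counts in wild type and 74.3% in *tuft*.

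The receptor *Rara* (chromosome 11, 98927800 to 98974942) had 96 *tuft* counts and 553 wild-type counts, or 14.9 CPM (12.1 to 18.2) and 38.8 CPM (35.6 to 42.2). Its fold change was 0.506 (0.403 to 0.629), just short of 2-fold. The interval left out 1, but whether the gene is called depends on the scaling: with library totals its log2 fold change was -1.38 and with the upper quartile -1.03, both past 2-fold. *Rarg* (chromosome 15, 102234938 to 102257522) had 318 and 951 counts, 49.4 CPM (44.1 to 55.2) and 66.7 CPM (62.6 to 71.1). Its fold change was 0.974 (0.855 to 1.11), with an interval that holds 1, and its direction turned with the median of ratios (log2 fold change 0.0083).

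The balance of the receptors differed between the libraries on any scaling. There were 0.302 *Rara* counts per *Rarg* count in *tuft* and 0.581 in wild type, and the ratio of these ratios was 0.519 (exact 95% interval 0.399 to 0.671). Fold changes also differed by level. The median log2 fold change was -0.33 for genes with a mean of 10 to 30 CPM, as *Rara*, and 0.03 for 30 to 100 CPM, as *Rarg*. None of the within-family ratios given here was set beside pairs of other genes. Of all RAR counts, *Rarg* held 74.3% in *tuft* (69.9% to 78.4%) and 57.9% in wild type (55.5% to 60.3%), and *Rarb* held 3.27% (1.80% to 5.43%) and 8.40% (7.11% to 9.85%). Summed, the 3 RAR genes had a fold change of 0.759 (0.681 to 0.845). RefSeq places *Gm46294* and *Gm22061* within *Rara*, and neither has a row in the tables.

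The RXR partners were lower as a sum, with a fold change of 0.420 (0.376 to 0.468). *Rxra*, the partner most often needed in the embryo, had 122 *tuft* counts and 1355 wild-type counts, with a fold change of 0.262 (0.216 to 0.316). *Rxrb* had 238 and 1233 counts and was not called, at 0.562 (0.487 to 0.646). *Rxrg* had 16 and 17 counts, with a fold change of 2.74 (1.30 to 5.77). *Rxra* held 52.0% of RXR counts in wild type (50.1% to 53.9%) and 32.4% in *tuft* (27.7% to 37.4%), as a share of counts.

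*Crabp1* (chromosome 9, 54764748 to 54773110) encodes a cytosolic retinoic acid binding protein known from migrating neural crest and the hindbrain. It had 2434 *tuft* counts and 8239 wild-type counts, 378 CPM (363 to 394) and 578 CPM (566 to 591). *Crabp2* (chromosome 3, 87948693 to 87953372), whose protein carries retinoic acid to the receptors, had 2322 and 9968 counts, 361 CPM (346 to 376) and 699 CPM (686 to 713). Both were lower in *tuft* by more than counting error and neither was called: the fold changes were 0.860 (0.822 to 0.900) and 0.678 (0.648 to 0.710). Of the 528 genes with a mean of at least 300 CPM, 10.2% were called lower and 41.5% higher. Their median log2 fold change was 0.64, and *Crabp1* and *Crabp2* lay below it at -0.22 and -0.56.

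The balance of the pair differed between the libraries. There were 1.05 *Crabp1* counts per *Crabp2* count in *tuft* and 0.827 in wild type, a ratio of ratios of 1.27 (1.19 to 1.35). Neural crest markers beside *Crabp1* were more often higher, 5 with a log2 fold change above 0 and 2 below. Of the 7 neural crest and head mesenchyme markers none was called lower and 3 were called higher. Of all genes tested, 37.3% were called lower and 21.2% higher. The 7 markers summed to 509 CPM in *tuft* and 202 CPM in wild type. *Foxd3* alone among them had no count in *tuft*, with 14 in wild type, and *Alx1* had a fold change of 0.572 (0.453 to 0.717). *Foxd3* and *Alx1* were called lower with library totals. A zero such as that of *Foxd3* was common: 1168 of 1540 genes with 0.5 to 1.5 wild-type CPM had no *tuft* count. *Sox10*, which marks migrating crest, had 1277 and 334 counts, with a fold change of 11.1. *Twist1* and *Dlx2* were also called higher, at 3.14 (2.88 to 3.42) and 7.07 (5.65 to 8.89). The part of neural crest in the *Crabp1* level was not tested.

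**Figure D3:**
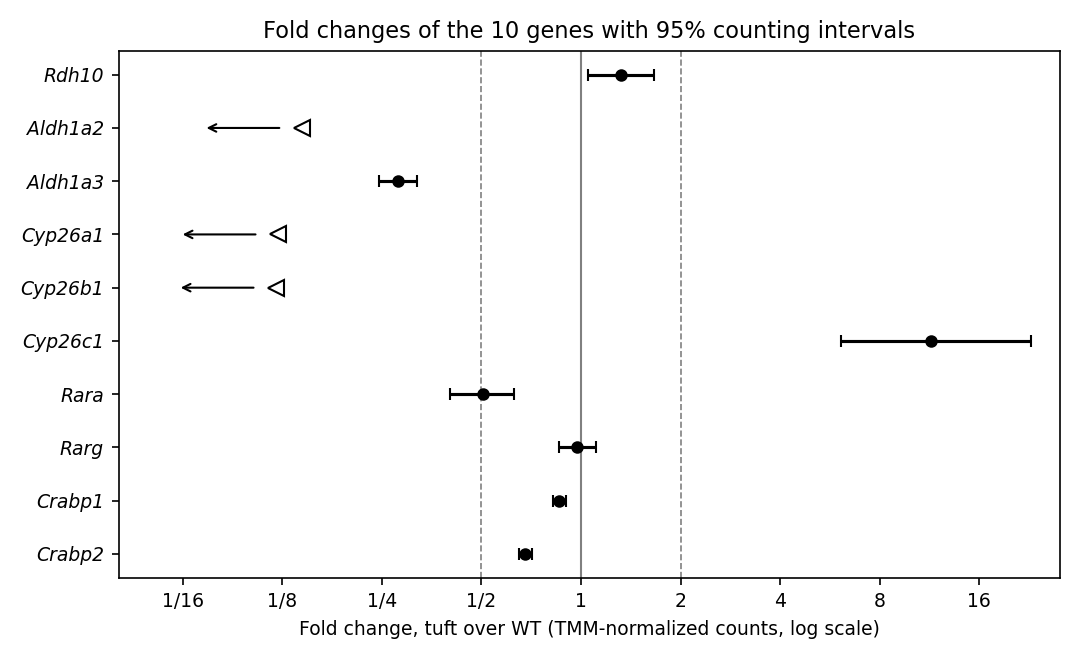
Fold change of each of the 10 genes, *tuft* over wild type after TMM, on a log axis. Points carry 95% Clopper-Pearson intervals for counting error, open triangles with arrows are upper bounds for genes with no count in *tuft*, and dashed lines mark 2-fold. *Aldh1a3* at 0.280 and *Cyp26c1* at 11.4 lie past the lines with their whole intervals, and *Rara* at 0.506 lies on one.

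Levels of different genes were compared per kilobase of merged exons (CPM per kb), with gene lengths of an older annotation, GENCODE vM1. In wild type the order was *Crabp1* (721 CPM per kb), *Crabp2* (529), *Aldh1a3* (38.9), *Rarg* (16.2), *Rara* (8.48), *Rdh10* (4.12), *Cyp26a1* (2.85), *Aldh1a2* (1.89), *Cyp26b1* (1.11) and *Cyp26c1* (0.522). Counting intervals overlapped for *Cyp26a1* with *Aldh1a2* and for *Cyp26b1* with *Cyp26c1*. In *tuft* it was *Crabp1* (472 CPM per kb), *Crabp2* (273), *Rarg* (12.0), *Aldh1a3* (8.29), *Cyp26c1* (4.54), *Rdh10* (4.15) and *Rara* (3.26), then the 3 genes without a count. There the intervals of *Cyp26c1*, *Rdh10* and *Rara* all overlapped. *Aldh1a3* thus stood above both receptors in wild type and below *Rarg* in *tuft*, and *Cyp26c1* was last in wild type and stood with *Rdh10* and *Rara* in *tuft*. With the longest transcript as the length, *Crabp2* (751 CPM per kb) came before *Crabp1* (721) in wild type, and in *tuft* *Cyp26c1* (4.54) came after *Rdh10* (4.81).

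A list of 43 other retinoid genes gives the rest of the pathway. Of these, 34 had the minimum count, and 16 were called lower, 7 higher and 11 not, which is 67.6% called beside 58.5% of all genes tested. Their median log2 fold change was -0.79 beside -0.46. The list holds *Rbp4* and *Ttr*, whose proteins carry retinol in blood and which are also yolk sac genes. *Rbp4* had 22 *tuft* counts and 4782 wild-type counts, with a fold change of 0.0134 (0.00839 to 0.0203), and *Ttr* had 151 and 3357, a fold change of 0.131 (0.111 to 0.154). The 7 yolk sac and visceral endoderm markers summed to 218 CPM in *tuft* and 1788 CPM in wild type. Of them 5 were called lower and 1 higher, beside 37.3% lower and 21.2% higher of all genes tested. The part of these tissues in the *Rbp4* and *Ttr* values was not tested. Without *Rbp4* and *Ttr*, 14 genes of the list were called lower and 7 higher.

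*Dhrs3*, a reductase that returns retinal to retinol and works with RDH10, had 210 *tuft* counts and 124 wild-type counts, with a fold change of 4.93 (3.93 to 6.21). *Stra6*, the membrane receptor for the retinol carrier, was not called, at 0.717 (0.611 to 0.839). *Fabp5*, which can carry retinoic acid to another nuclear receptor, was not called at 1.89 (1.78 to 2.02). That receptor, *Ppard*, was called at 2.04 (1.77 to 2.36), but not with the upper quartile (1.97) or library totals (1.55). Of 13 retinol and retinal dehydrogenases and reductases, 8 had the minimum count. Of these, 4 were called lower and 2 higher, beside 37.3% lower and 21.2% higher of all genes tested. *Rdh13*, a mitochondrial reductase, was the second higher one at 2.44 (2.23 to 2.67), and was not called with library totals (1.85).

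Of 12 receptor cofactors 5 were called lower, 1 higher and 6 not, beside 37.3% lower and 21.2% higher of all genes tested. *Nrip1*, which represses receptors when ligand is bound and is itself induced by retinoic acid, had no *tuft* count and 635 wild-type counts. At the floor it was at least 72.7-fold lower, and at the interval end 58.9-fold. Of the 3034 genes with a mean of 10 to 30 CPM, as *Nrip1*, 37.9% were called lower. Genes of the marker lists with many wild-type counts were also at 0 in *tuft*: *Pecam1* had 443 in wild type and *Apoa4* had 2856. The corepressor gene *Ncor1* had a fold change of 0.409 (0.363 to 0.460). The coactivator *Ep300* was at 0.337 (0.294 to 0.386), and its relative *Crebbp* was not called at 0.728 (0.625 to 0.845). *Nr2c2*, an orphan receptor that can compete for direct repeats, was the higher one at 2.05 (1.76 to 2.39), but was not called with the upper quartile (1.99) or library totals (1.56). A corepressor and a coactivator gene were thus both among the lower ones. *Dhrs3*, *Rdh13*, *Stra6*, *Ppard*, *Ncor1* and *Nr2c2*, and below *Nr2f1* and *Hoxb4*, overlap other genes of the tables, and reads of such pairs may not have been told apart.

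Of 29 genes known as targets of retinoic acid, 23 had the minimum count, and 8 were called lower, 9 higher and 6 not. The share called was 73.9% beside 58.5% of all genes tested, split between the directions, with a median log2 fold change of -0.48 beside -0.46. The list shares *Cyp26a1* and *Crabp2* with the 10 genes and 5 genes with the pathway list. Among those called lower were *Tgm2*, a transglutaminase, at 0.118 (0.0804 to 0.167) and *Tshz1*, a zinc finger factor, at 0.184 (0.0988 to 0.315). Among those called higher were *Nr2f1*, at 2.80 (2.60 to 3.01), *Meis1*, at 2.21 (1.90 to 2.56) but 1.68 and not called with library totals, and *Foxc1*, a factor of the periocular mesenchyme, at 2.77 (2.40 to 3.19).

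The Hox genes of the list, the classical targets in the hindbrain and trunk, mostly had few counts. *Hoxb1*, *Hoxa3*, *Hoxa4* and *Hoxd4* had at most 4 counts in wild type and none in *tuft*, and *Hoxb5* had 17 and none. *Hoxb4* was the exception, with 130 *tuft* counts and 10 wild-type counts, at a fold change of 37.9 (19.9 to 80.8). Its wild-type level was 0.702 CPM, and of 1251 genes tested that had 0.5 to 1.5 wild-type CPM, 14.0% were called higher. Of 4 hindbrain markers, 3 had counts in wild type and 1 in *tuft*. *Hoxb1*, *Hoxa2* and *Egr2* were at 0 in *tuft* and had at most 4 wild-type counts.

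**Figure D4:**
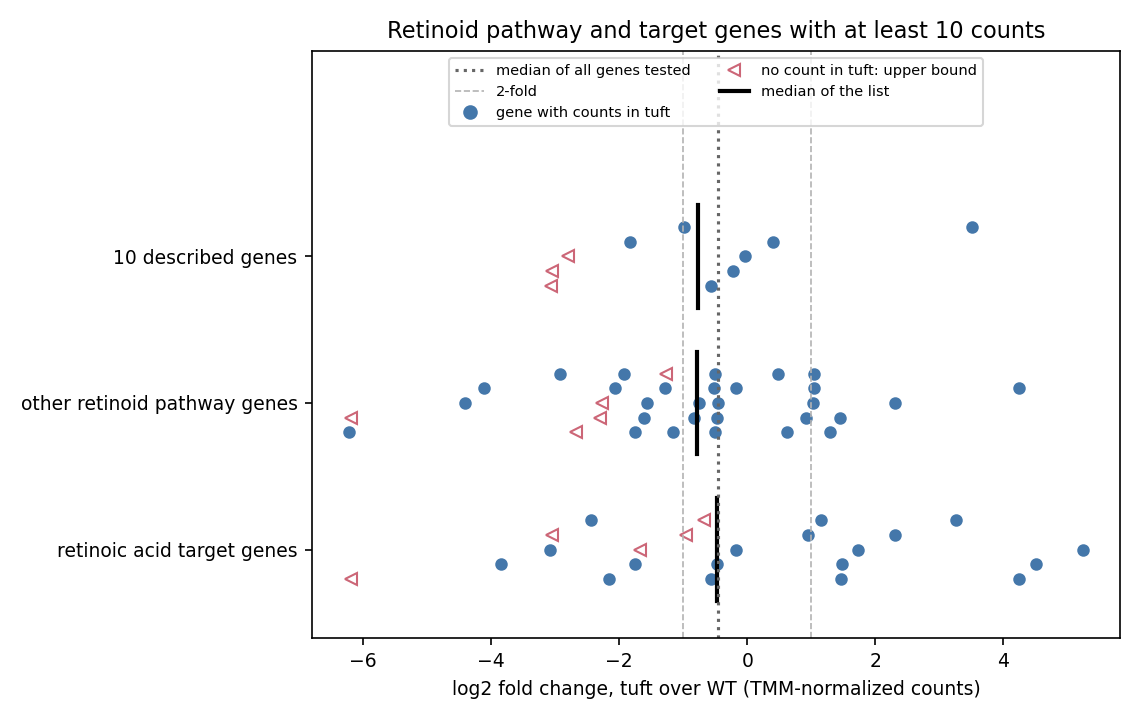
log2 fold changes after TMM of the 10 genes, of the other retinoid pathway genes and of retinoic acid target genes that passed the minimum count. Each point is 1 gene, open triangles are upper bounds for genes without a count in *tuft*, black bars are medians, the dotted line is the median of all genes tested at -0.46 and dashed lines mark 2-fold. The target genes spread to both sides with a median of -0.48.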

How the data were processed

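The files deposited by the authors hold unnormalized read counts, 1 value per gene symbol and genotype. Per the paper's methods, poly-A RNA was read single-end on an Ion Proton, trimmed with PRINSEQ, aligned to UCSC mm10 with TopHat2 2.0.14 and Bowtie2 2.2.5 and counted with htseq-count. The 5 summary lines of htseq-count, for reads that were not unique, ambiguous or outside genes, were left out: counts on genes were 27.4% of *tuft* entries and 37.3% of wild-type entries. TMM factors came from edgeR 4.0.16 in R 4.3.3, and folds and intervals from Python 3.11.15 with scipy 1.17.1, tested on simulated counts. Those held counting error alone and few changed genes, whereas 58.5% of genes tested were called here. They check the code and not how well the folds and intervals hold for these libraries. NOISeq-sim, the program of the study, rests on simulated libraries and was not run. With 1 library per genotype edgeR has no residual degrees of freedom, so no p-value is given. The 10 genes and the lists were chosen with earlier results of these data known. The genes named are the 10, *Tet1*, and genes of the pathway, target and marker lists, of which some are not reported here. *Bco1* was found under its older symbol *Bcmo1*. Alternatives were library totals, the upper quartile, DESeq2's size factors (DESeq2 1.42.0), no filter or 1 CPM in either library, folds of 1.5 and 4, and the whole interval past 2-fold.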

Additional observations from a re-analysis of the deposited data

How the results depend on the processing

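The number of the 10 genes called stayed between 4 and 6 under all 8 alternatives. It was 6 with library totals, the upper quartile or a fold of 1.5, *Rara* being near 2-fold, and 4 with a fold of 4. The pathway list went from 23 calls to 11 with a fold of 4 and to 15 with the whole interval past 2-fold, and the target list from 17 to 11 with a fold of 4. Over all genes, 8181 were called and 4377 with a fold of 4. With library totals the lower share of these calls rose from 63.7% to 74.4%, the pathway list had 18 lower and 2 higher calls in place of 16 and 7, and the median of all genes was -0.85. The calls of *Lpl*, *Ppard*, *Nr2c2* and the yolk sac marker *Amn* ended with the upper quartile and with library totals, those of *Rdh13*, *Rxrg* and *Meis1* with library totals, and that of *Eya2* with the median of ratios. Single genes and family sums were put through the scalings after seeing the data. Leaving out *Rbp4* and *Ttr* was chosen after seeing the data and left 21 calls. For genes at 0, depth sets the bound: 3 counts in *tuft* are 0.466 CPM. At the wild-type share, *Cyp26a1*, *Cyp26b1* and *Nrip1* would have had 24.7, 25.1 and 218 *tuft* counts. Genes with a count numbered 11795 in *tuft* and 16914 in wild type, and 59.2% and 51.4% of entries were not unique. What lies behind the zeros was not tested, and the counting intervals do not cover it. No paired analysis was possible because each genotype has 1 library.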
